A study of Mus musculus with 7 samples.

Results

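The data describe 2 distant V segments of the mouse immunoglobulin heavy chain (Igh) locus, a VH1-family segment whose joins centre on position 116240676 of chromosome 12 (mm9) and a VH8-family segment whose joins centre on 116090723. Their members are all junctions from the JH4 bait in deletional orientation that lie within 100 bp of these positions in the 7 libraries. That gave 1478 junctions for the VH1 segment and 1295 for the VH8 segment, of 95203 V junctions in all, and these are 2 of the 158 V segments found. The segments were picked because only about 1 in 3 of their joins were in frame over all libraries, so the in-frame share is given as a description and is not tested. By one constant offset to the RefSeq gene table of GRCm38.p6, the VH1 segment lies 4 bp from the end of Ighv1-11 and the VH8 segment 3 bp from the end of Ighv8-2, with the next gene 3610 bp and 6661 bp away. Under that offset 69 of the 158 segments lay within 5 bp of a gene end, and the next best offset gave 7. All of the named segments lay at position 116090723 or above, and no segment below it was named. The VH8 segment is thus the first that the offset names, at the edge of the stretch it fits, while the VH1 segment lies inside that stretch. The table lists both genes as V segments and not as pseudogenes, and the names Ighv1-11 and Ighv8-2 are used below. Names, gene status and distances are those of the reference builds, and whether they hold for the DNA of these mice was not tested.

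The study asked how often each VH segment is used when an element beside VH81X is altered. High-throughput genome-wide translocation sequencing, which sequences whatever DNA has been joined to a chosen bait, was run from the JH4 coding end on DNA of bone marrow pro-B cells. There were 4 VH81X-CBEscr/scr libraries (mutant below) and 3 WT libraries. Mice of both genotypes were of the 129SVE background and aged 4 to 6 weeks, and the cells were sorted as B220+CD43highIgM-. CBE stands for CTCF-binding element in the series title, and the labels do not spell out the allele further. No label states whether each library is a mouse of its own, and the p-values thus reflect library-to-library spread, which may be technical. The main limma-voom fit, a linear model over all V segments, pooled this spread over the segments tested. Its p-values therefore reflect little of a single segment's own spread.

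V, D and J segments are cut by the RAG recombinase at recombination signals, each a heptamer and a nonamer with a spacer between them, and the trimmed ends are joined with added bases. A V(D)J join is in frame when the conserved cysteine codon of V and the conserved tryptophan codon of JH4 share a reading frame, and only such a join can encode a heavy chain. VH1, also called J558, is the largest VH family of the mouse. VH81X is the D-proximal segment best known for frequent rearrangement in pro-B cells. Ighv1-11 lies 1404 kb and Ighv8-2 1254 kb from VH81X, on the side away from the D segments.

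Each library held between 31986 and 46915 junctions, of which 10961 to 16874 were V junctions. In the deposited files 71.8% to 84.8% of the lines of a library were marked as duplicates, and all lines were counted here unless stated. WT replicate 2 stood apart with 3694 distinct V junctions, against 5902 to 11648 in the other libraries. The read names gave 4 sequencing runs, and 0 of them held both genotypes, so run and genotype cannot be told apart. VH81X, the segment beside the altered element, took 0.181% ± 0.140 of V junctions in mutant libraries (SD, n = 4) and 9.42% ± 0.622 in WT libraries (SD, n = 3).

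The end of each segment is shown because the reading frame is counted from it. The sequences were rebuilt from the reads, since no genome sequence of the files' build was used here. Each has 260 bases of V, from joins, followed by 39 bases of recombination signal, from the few junctions of opposite orientation. Capitals mark the cysteine codon, the heptamer and the 9 bases that follow a spacer taken as 23 bases. The spacer length was set and not read from the sequences, so the nonamer may begin at a base near the marked stretch. For Ighv8-2, which had 2 forms described further on, they also mark the bases that differ. Ighv1-11 spans chr12:116240637-116240935 and Ighv8-2 spans chr12:116090684-116090982 (mm9, minus strand).
Ighv1-11: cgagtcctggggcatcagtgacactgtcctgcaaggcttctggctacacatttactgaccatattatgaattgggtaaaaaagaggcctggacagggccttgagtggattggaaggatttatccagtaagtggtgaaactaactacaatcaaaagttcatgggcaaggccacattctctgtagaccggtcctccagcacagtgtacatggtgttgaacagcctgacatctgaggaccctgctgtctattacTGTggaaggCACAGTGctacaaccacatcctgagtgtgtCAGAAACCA
Ighv8-2, first form: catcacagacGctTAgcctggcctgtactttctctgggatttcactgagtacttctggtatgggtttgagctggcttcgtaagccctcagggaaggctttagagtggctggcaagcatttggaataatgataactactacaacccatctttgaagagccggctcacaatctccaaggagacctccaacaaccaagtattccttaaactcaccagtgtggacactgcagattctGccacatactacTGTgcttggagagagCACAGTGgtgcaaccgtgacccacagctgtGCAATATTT
Ighv8-2, second form: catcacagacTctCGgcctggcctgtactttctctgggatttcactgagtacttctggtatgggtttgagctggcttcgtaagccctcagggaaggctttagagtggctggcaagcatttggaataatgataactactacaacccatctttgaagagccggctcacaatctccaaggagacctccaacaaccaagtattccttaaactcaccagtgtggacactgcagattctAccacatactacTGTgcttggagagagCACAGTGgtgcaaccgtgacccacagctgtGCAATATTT
After the cysteine codon, 6 bases of V remained in Ighv1-11 and 12 in Ighv8-2. Both had the heptamer CACAGTG directly at the position where their joins centred. In the frame of the cysteine codon, 0 of the 86 codons read were stop codons in each of the 3 sequences. The signal part rested on 4 inverted junctions for Ighv1-11, 3 of them mutant and 1 WT, and on 10 for Ighv8-2, 9 of them mutant and 1 WT, so single bases in it are less certain.

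The joins with the most reads show what was counted. For each segment, 1 in-frame and 1 out-of-frame join per genotype are printed from the cysteine codon of V to the tryptophan codon of JH4, with the bases between V and JH4 in capitals.
Ighv1-11, in frame, mutant replicate 4: tgtggaTAGGTTTTtatggactactgg
Ighv1-11, in frame, WT replicate 2: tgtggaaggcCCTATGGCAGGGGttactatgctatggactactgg
Ighv1-11, out of frame, mutant replicate 1: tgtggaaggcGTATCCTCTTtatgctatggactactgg
Ighv1-11, out of frame, WT replicate 2: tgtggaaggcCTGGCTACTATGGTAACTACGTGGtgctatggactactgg
Ighv8-2, in frame, mutant replicate 1: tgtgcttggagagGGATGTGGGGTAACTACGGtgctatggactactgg
Ighv8-2, in frame, WT replicate 2: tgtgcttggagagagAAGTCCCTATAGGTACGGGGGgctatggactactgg
Ighv8-2, out of frame, mutant replicate 4: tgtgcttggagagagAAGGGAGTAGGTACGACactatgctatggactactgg
Ighv8-2, out of frame, WT replicate 2: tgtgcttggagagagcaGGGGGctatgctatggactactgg
These joins had 9, 10, 7 and 12 lines for Ighv1-11 and 6, 14, 8 and 7 lines for Ighv8-2, in the order printed. The mutant in-frame join of Ighv1-11 had 21 bases between both codons and the WT in-frame join of Ighv8-2 had 45, and each of these 2 held a stop codon in its frame. The other 2 in-frame joins held none. Joins were not shared between libraries: 757 distinct joins of Ighv1-11 and 745 of Ighv8-2 were found, and 0 of either occurred in more than 1 library. No join had more than 12 lines for Ighv1-11 or 14 lines for Ighv8-2.

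About 1 in 3 Ighv1-11 joins were in frame in mutant and WT libraries alike, which is the value that chose the segment. In frame were 25.2%, 32.5%, 33.5% and 32.3% of the joins to JH4 in mutant replicates 1 to 4, against 29.6%, 29.5% and 38.6% in WT replicates 1 to 3. The values of the genotypes overlapped, and the lowest was in mutant replicate 1 and the highest in WT replicate 3. Among distinct joins the shares were 28.0%, 33.9%, 36.1% and 29.6% in mutant and 29.4%, 38.9% and 38.1% in WT libraries. Over all libraries 248 of 749 distinct joins were in frame, or 33.1% (95% Wilson interval 29.8% to 36.6%), and the other two frames held 252 and 249 joins.

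Ighv8-2 had a similar in-frame share. In frame were 41.7%, 32.6%, 35.2% and 28.9% of its joins to JH4 in mutant replicates 1 to 4, against 33.5%, 35.9% and 34.3% in WT replicates 1 to 3. Mutant libraries lay on both sides of the WT range. Among distinct joins the shares were 43.7%, 35.2%, 33.6% and 32.5% in mutant and 35.1%, 30.4% and 31.9% in WT libraries. Over all libraries 257 of 740 distinct joins were in frame, or 34.7% (31.4% to 38.2%), against 246 and 237 in the other two frames. Intervals cover counting error only and not the spread between libraries. Where lines and not distinct joins are counted, they are too narrow even for that, since several reads can come from 1 molecule.

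In the other V segments 56.3% of 50969 distinct joins were in frame, with 50.9% to 59.4% in single libraries. Over the 127 tested V segments with a reading frame the median was 62.9%, and the range ran from 22.6% to 77.3%. Of the 59 segments with at least 300 distinct framed joins, Ighv1-11 had the third lowest share and Ighv8-2 the fifth lowest. The 2 with lower shares were a segment at 115999120 with 28.4% and VH81X with 29.9%. A segment at 115623228 lay between both members with 33.5%, and the next above were segments at 114869105 with 38.7% and 114846142 with 39.1%. Among all 127 segments, counted from the lowest share, Ighv1-11 ranked 9th and Ighv8-2 13th. Most V segments thus had an in-frame majority, and Ighv1-11 and Ighv8-2 sat in a minority of segments with low shares.

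**Figure D1:**
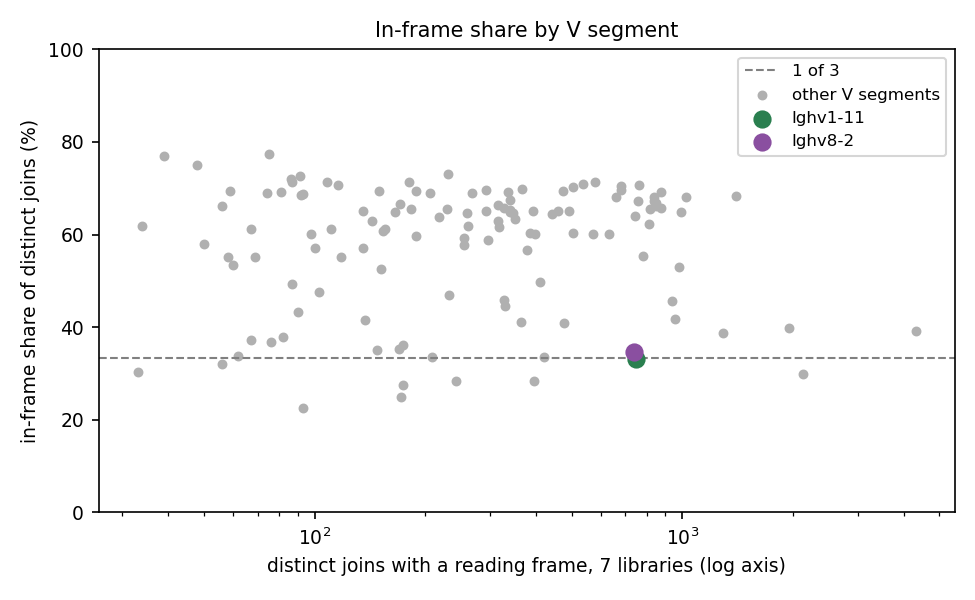
Each point is 1 V segment, with the number of its distinct joins in all 7 libraries on a log axis and the in-frame share of these joins in percent. Ighv1-11 (749 joins, 33.1%) and Ighv8-2 (740 joins, 34.7%) lie beside the dashed line at 1 of 3, while the median segment lies at 62.9%.

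Of the in-frame joins of both segments, a larger part held a stop codon than in the other V segments. Counted were distinct in-frame joins whose reads held the first base of the cysteine codon and the last base of the tryptophan codon. Stop codons between both codons were looked for in these joins. They were found in 85 of 233 such joins of Ighv1-11, or 36.5%, and in 81 of 251 of Ighv8-2, or 32.3%, against 3672 of 28338, or 12.96%, in the other V segments. Since the joins were chosen by frame and the segments by their in-frame share, these values carry no test.

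For Ighv1-11 the share with a stop codon was 40.7%, 41.2%, 33.3% and 41.2% in mutant replicates 1 to 4, against 33.3%, 47.4% and 30.8% in WT replicates 1 to 3. For Ighv8-2 it was 40.9%, 34.8%, 28.6% and 35.1% in mutant, against 24.0%, 52.9% and 24.4% in WT libraries. The genotypes overlapped for both segments, and single libraries had 17 to 52 such joins per segment. The other V segments had 11.2% to 14.8% in every library, below each value of both segments.

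Ighv1-11 and Ighv8-2 were not alone in this. Among the 102 other V segments with at least 50 such joins the median was 10.4% and the range 2.83% to 41.8%, with 4 segments above Ighv1-11 and 6 above Ighv8-2. In-frame joins read to the outer bases of both codons and without a stop codon made up 19.8% of the 749 distinct framed joins of Ighv1-11 and 22.97% of the 740 of Ighv8-2. In-frame joins that lacked such a base, which include joins trimmed past the cysteine codon, were not searched for stops. They stayed among the framed joins and were not counted as free of stops. The median number of codons between the cysteine and the tryptophan was 12 for Ighv1-11 (quartiles 11 and 14) and 15 for Ighv8-2 (13 and 16).

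**Figure D2:**
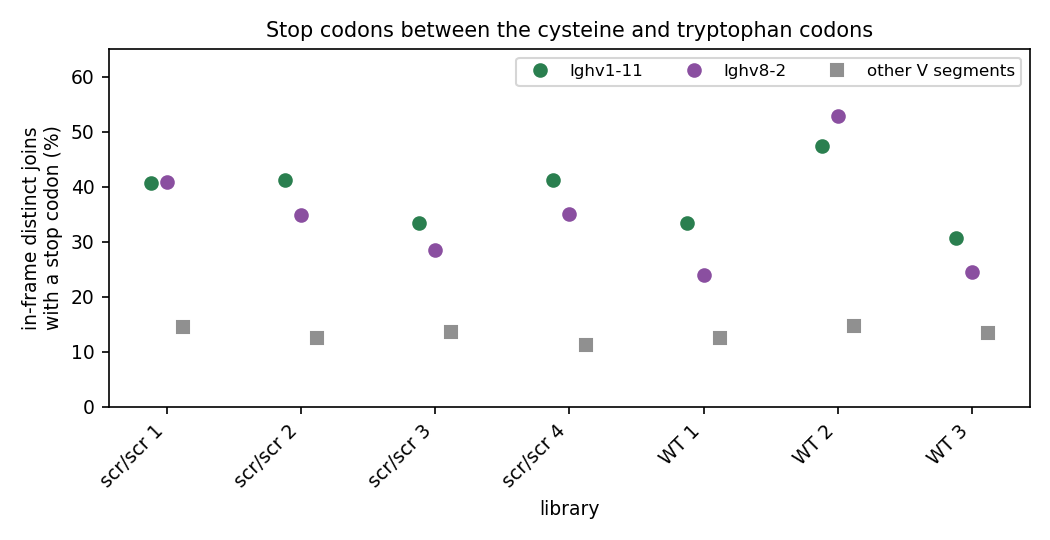
The share of distinct in-frame joins with a stop codon between the cysteine and tryptophan codons, in percent, is plotted for the 4 mutant libraries (scr/scr) and the 3 WT libraries. Points for Ighv1-11 (30.8% to 47.4%) and Ighv8-2 (24.0% to 52.9%) lie above the squares for the other V segments (11.2% to 14.8%) in each library.

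Neither segment's share of V junctions was called different between the genotypes. Ighv1-11 had 218, 126, 205 and 267 junctions in mutant replicates 1 to 4, against 226, 228 and 208 in WT replicates 1 to 3. These were 1.81%, 1.08%, 1.57% and 1.70% of V junctions in mutant and 1.34%, 2.08% and 1.40% in WT libraries. The highest share was in WT replicate 2, the library with the fewest distinct V junctions, and the lowest in mutant replicate 2. Among the V segments of a library it ranked 10th, 26th, 19th and 16th in mutant and 23rd, 11th and 22nd in WT libraries.

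Ighv1-11 averaged 1.54% ± 0.322 of V junctions in mutant libraries (SD, n = 4) and 1.61% ± 0.412 in WT libraries (SD, n = 3). The log2 fold change of mutant over WT was -0.019 (SE 0.18, 95% interval -0.37 to 0.33, limma-voom adjusted p 0.977). The two-sided exact permutation p of the mean log2 share over all 35 splits was 0.857, where 0.0286 is the smallest possible. The sign rested on single libraries, since the log2 fold change was 0.16 without WT replicate 2 and 0.12 without mutant replicate 2.

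Ighv8-2 had 192, 132, 164 and 204 junctions in mutant replicates 1 to 4, against 234, 158 and 211 in WT replicates 1 to 3. These were 1.59%, 1.13%, 1.26% and 1.30% of V junctions in mutant and 1.39%, 1.44% and 1.42% in WT libraries. The WT libraries lay close together, with 3 of the 4 mutant libraries below all of them and 1 above. The means were 1.32% ± 0.196 in mutant libraries (SD, n = 4) and 1.42% ± 0.0274 in WT libraries (SD, n = 3). The log2 fold change was -0.11 (SE 0.19, 95% interval -0.47 to 0.26, limma-voom adjusted p 0.930), and the exact permutation p was 0.457.

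Thus 0 of both segments were called by limma-voom, against 4.65% of all 129 V segments tested (5 higher, 3.88%, and 1 lower, 0.775%). Of the 129 segments 17 had an unadjusted p under 0.05, and 0 of both members did. The unadjusted p was 0.914 for Ighv1-11 and 0.558 for Ighv8-2, and limma-trend and the exact permutation test also called 0 of both. The 95% intervals above include changes in both directions, and they do not show that the shares were equal. When library size was counted without VH81X, the median log2 fold change of all 129 segments moved to -0.18, and those of Ighv1-11 and Ighv8-2 to -0.16 and -0.25 (limma-voom adjusted p 0.658 and 0.462).

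**Figure D3:**
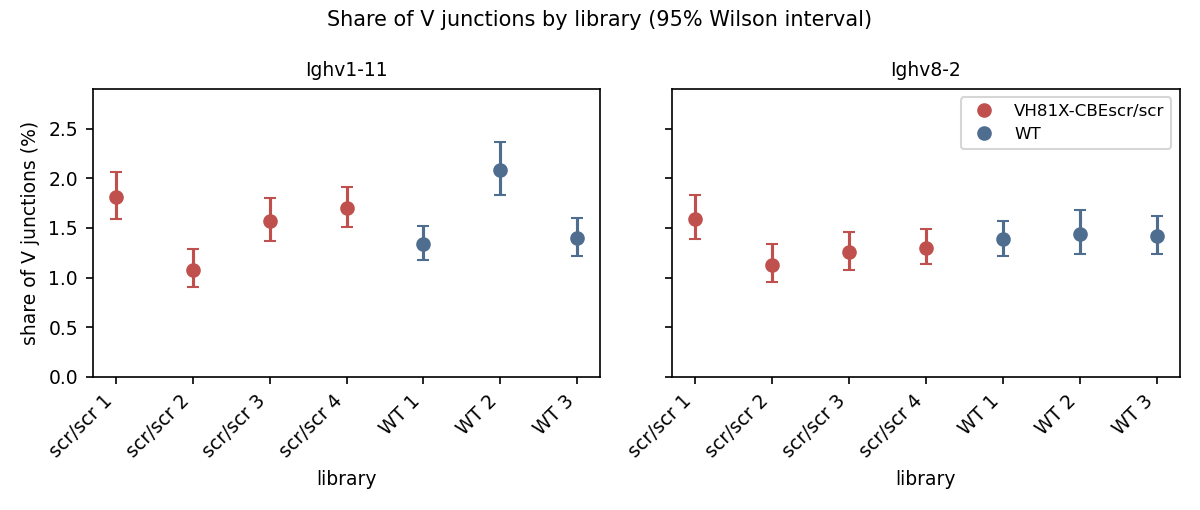
The share of V junctions in percent is plotted for Ighv1-11 and Ighv8-2 in each library, mutant (scr/scr) to the left and WT to the right, with 95% Wilson intervals. Mutant and WT values overlap in both panels, from 1.08% to 2.08% for Ighv1-11 and from 1.13% to 1.59% for Ighv8-2.

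In every library the joins of Ighv1-11 had lost more V bases than those of Ighv8-2, although with 7 libraries and 5 measures no single measure could pass the test after adjustment. Joins to JH4 had lost a mean of 2.58 ± 0.362 bases from the coding end of Ighv1-11 and 1.10 ± 0.146 from that of Ighv8-2 (SD over libraries, n = 7). By library the mean loss was 2.44, 2.95, 2.13 and 2.94 bases for Ighv1-11 in mutant replicates 1 to 4, and 2.12, 2.61 and 2.87 in WT replicates 1 to 3. For Ighv8-2 it was 1.12, 1.31, 1.10 and 0.990 bases in mutant and 1.25, 0.987 and 0.910 in WT libraries. The lowest value of Ighv1-11 lay above the highest of Ighv8-2.

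The within-library difference was 1.49 ± 0.427 bases (SD, n = 7) and positive in 7 of 7 libraries. Its exact sign-flip permutation p was 0.0156, the smallest that 128 flips allow, and 0.0781 after Benjamini-Hochberg adjustment over 5 measures. That is above 0.05 by the number of libraries and measures, since the smallest possible p of a single measure becomes 0.0781, so the adjusted value says nothing of the size of the difference. No loss was seen in 36.5% of the junctions of Ighv1-11 and 61.2% of those of Ighv8-2, and a loss of 10 or more bases in 4.74% and 0.772%. An added base that equals the next base of the signal is counted as V. Such junctions past the coding end were 8.999% for Ighv1-11 and 29.2% for Ighv8-2, and they were counted as no loss.

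**Figure D4:**
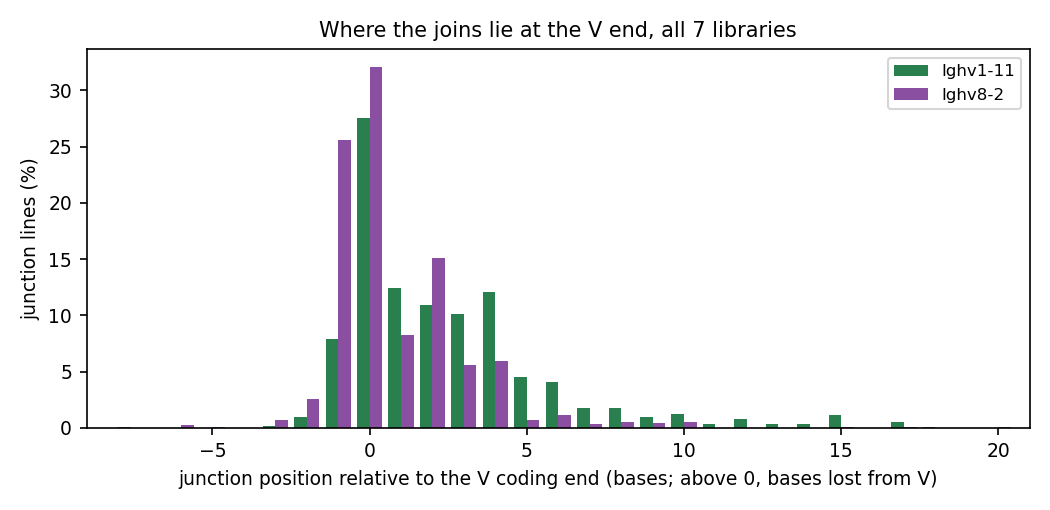
Bars give the percent of junctions at each position relative to the coding end, in bases, over all 7 libraries, with losses above 0. Ighv8-2 is concentrated at the end and just past it, below 0 (61.2% without loss), while Ighv1-11 (36.5% without loss) reaches further into V.

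The other 4 measures were not called between the segments either. Ighv1-11 had 0.323 more lines per distinct junction than Ighv8-2 (SD 0.483, higher in 6 of 7 libraries, exact sign-flip p 0.0312, adjusted 0.0781). WT replicate 2 had 4.15 against 2.77 lines per distinct junction, and the difference was 0.148 without that library and 0.0267 among lines not marked as duplicates. The difference in added bases per join was -0.610, with 16.6 ± 0.750 against 17.2 ± 0.606 (SD, n = 7, exact sign-flip p 0.0938, adjusted 0.156), and it was -0.0688 among distinct junctions. The log2 share differed by 0.18, higher in 4 of 7 libraries (exact sign-flip p 0.125, adjusted 0.156). It was only 0.0072 among lines not marked as duplicates and 0.0061 among distinct junctions. The bases lost from JH4 were 5.07 ± 0.609 and 4.99 ± 0.427 (SD, n = 7, exact sign-flip p 0.8125). Added bases include any D segment, and the files held no join with more than 30 of them.

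Between the genotypes, 0 of 8 exact permutation tests of junction structure passed after adjustment, and 1 had an unadjusted p under 0.05. With 0.0286 as the smallest possible p, a single test among 8 could not pass after adjustment whatever its size. That one concerned the added bases in Ighv8-2 joins. They averaged 17.8, 17.9, 17.3 and 17.7 in mutant replicates 1 to 4 and 16.6, 16.3 and 17.2 in WT replicates 1 to 3, so that each mutant library lay above each WT library. The means were 17.7 ± 0.279 (SD, n = 4) in mutant and 16.7 ± 0.431 (SD, n = 3) in WT libraries, with a difference of 0.965 (exact permutation p 0.0286, adjusted 0.229). Among distinct joins the difference was 0.199. The other 7 tests, on bases lost from V and JH4, lines per distinct junction and the added bases of Ighv1-11, had exact permutation p-values of 0.257 to 0.857.

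In-frame and out-of-frame joins had nearly the same number of added bases. Distinct joins of Ighv1-11 held a mean of 17.1 in frame and 17.3 out of frame, and those of Ighv8-2 17.1 and 17.3. Lines per distinct join were 1.87 in frame and 2.01 out of frame for Ighv1-11, and 1.73 and 1.75 for Ighv8-2. D sequence was looked for in the added bases as a run of at least 8 bases shared with 1 of 13 D segments rebuilt from the D junctions. Such a run was found in 62.5% of distinct Ighv1-11 joins and 63.6% of Ighv8-2 joins, against 59.8% in the other V segments. Of the joins with a match, 36.5%, 38.0% and 34.1% had the D segment farthest from JH4, and 2.56%, 1.06% and 2.67% the nearest. Joins whose longest run fit several D segments equally stayed in these totals, with 82 of 468, 89 of 471 and 5884 of 30619. Joins to JH3 in place of JH4 were few, with 8 and 6 lines, and have no frame here.

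The Ighv8-2 window held 2 main forms of the V sequence, which the printed sequences show. Only position 234 was counted by library, and both of its bases were found in every library. They differed by G11T, T14C, A15G and G234A, counted from 1 at the 5′ end of the printed sequence, with the first form's base first. The G at position 234 was in 79, 62, 85 and 133 lines of mutant replicates 1 to 4 and the A in 113, 69, 79 and 71. In WT replicates 1 to 3 the G was in 122, 90 and 111 lines and the A in 112, 68 and 100. The first form, taken as the G at position 234, was thus 41.1%, 47.3%, 51.8% and 65.2% of Ighv8-2 lines in mutant libraries. In WT libraries it was 52.1%, 57.0% and 52.6%.

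Neither base at position 234 was rare in any library, and the mutant libraries lay on both sides of the WT range. Reads long enough to hold both ends linked the bases only in part. Only reads with a form base at both positions were counted. For positions 11 and 234 these were 198 reads, of which 88 held both first-form bases, 83 both second-form bases and 27 one of each. The mixed reads were 15 of 189 for position 14 and 17 of 187 for position 15. All calls at positions 11, 14 and 15 numbered 223, 223 and 230. First-form bases were 98, 101 and 103 of them and second-form bases 100, 88 and 84. The remaining reads held neither base and were left out, so the printed forms do not cover every read. In frame were 135 of 379 distinct joins of the first form, or 35.6% (95% Wilson interval 31.0% to 40.6%), and 122 of 360 of the second, or 33.9% (29.2% to 38.9%). The low in-frame share was therefore seen in both forms. No such position was found in Ighv1-11. Whether the forms are alleles or copies of the gene was not tested, and if they are copies, the share of Ighv8-2 given here is that of their sum.

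**Figure D5:**
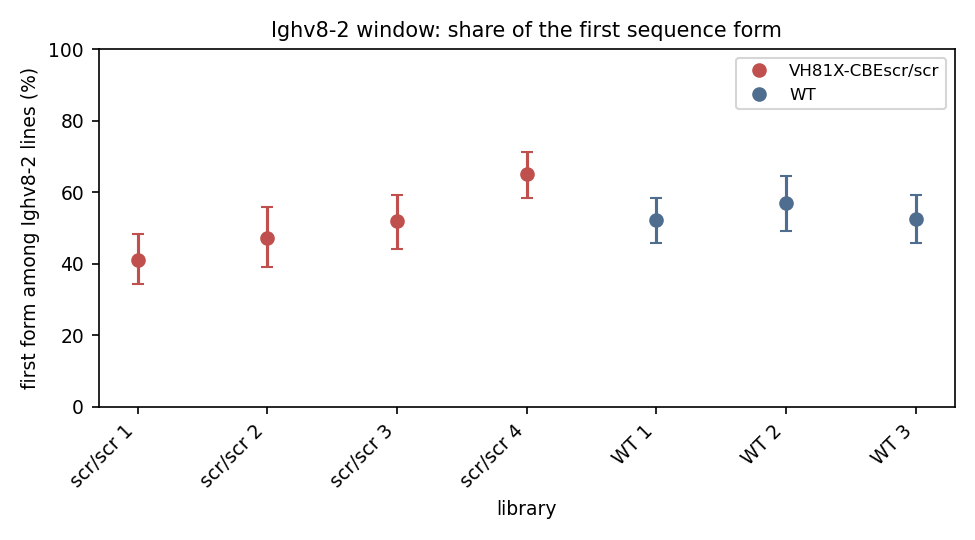
The share of Ighv8-2 junctions with the first form (G at position 234) is plotted in percent for each library, mutant (scr/scr) to the left and WT to the right, with 95% Wilson intervals. The mutant libraries span 41.1% to 65.2% and the WT libraries 52.1% to 57.0%.

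Segments next to Ighv1-11 and Ighv8-2 had higher in-frame shares. Ighv1-9, 28.7 kb from Ighv1-11 towards the D segments, had 68.0% of distinct joins in frame, and Ighv1-12, 3.61 kb on the other side, had 61.8%. Ighv1-9 took 1.55% ± 0.112 of V junctions in mutant libraries and 1.61% ± 0.154 in WT libraries, close to the level of Ighv1-11. Ighv1-12 took 0.431% ± 0.129 in mutant and 0.448% ± 0.0578 in WT libraries (SD, n = 4 and n = 3). Beside Ighv8-2, a segment 9.71 kb towards the D segments had 49.8% in frame, and Ighv1-2, 6.79 kb on the other side, had 53.1%. The first took 0.739% ± 0.101 of V junctions in mutant and 0.836% ± 0.148 in WT libraries, and Ighv1-2 took 1.89% ± 0.0940 in mutant and 2.04% ± 0.281 in WT libraries. The gene table lists Ighv1-2 as a pseudogene.

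The segments whose log2 share followed that of each member best over the 7 libraries are given as a description, since all shares come from the same libraries and totals. For Ighv1-11 they were Ighv1-22 (Pearson r 0.910), a segment at 115725671 (0.864) and one at 115999120 (0.852). Ighv1-22, with 68.9% of its distinct joins in frame, took only 0.0950% of V junctions in mutant and 0.102% in WT libraries, so its level rests on few junctions. The segment at 115999120 was the one with the lowest in-frame share among the well-covered segments. For Ighv8-2 they were Ighv8-13 (r 0.911), a segment at 115810681 (0.900) and Ighv1-22 (0.874). Ighv8-13 also rests on few junctions, with 91 in all, or 0.0891% of V junctions in mutant and 0.110% in WT libraries. The r between Ighv1-11 and Ighv8-2 was 0.668.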

How the data were processed

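Per the file headers, the deposited files list 1 sequenced junction per line with its position, strand, read sequence and a duplicate mark, and no column holds counts, so lines were counted here. Bowtie2 and the mm9 build are named in the submitters' processing notes, and version and filters are not given in the sources used here. Positions are those of the files, and no mm9 genome was used to check them. Lines were assigned to groups by the labels.

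V junctions were chromosome 12 lines in deletional orientation from 114830800 to 117838107. They were joined into 158 segments by gaps of at most 300 bp with at least 10 lines. Repeated reads stay in the main values. Lines of 1 library with the same junction position, bait end and added bases were counted once where distinct junctions are named. Frames were read from the cysteine codon in the consensus of each segment's reads and from the JH4 tryptophan codon at 114671105. The prey bases of 100% of Ighv1-11 lines and 99.9% of Ighv8-2 lines matched the consensus of their own segment best (bwa 0.7.19). Each consensus was built from the same lines, so this match cannot tell whether lines of a similar gene were placed in the window. Of the prey bases, 0.774% and 2.15% differed from the files' reference.

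limma-voom (limma 3.58.1, R 4.3.3) tested 129 segments with at least 10 lines on average in either group, with V junctions as library size and Benjamini-Hochberg adjustment at 0.05. Single values were compared by two-sided exact permutation over 35 splits, and segments by exact sign flips. Scripts used Python 3.11.15, pandas 2.3.3 and SciPy 1.17.1. The limma-voom fit was tested on simulated counts, and the exact tests on small examples with known answers. Named were both members, their nearest tested neighbours, the 3 segments most correlated with each, VH81X, and segments next in order of in-frame share, the last chosen after their values were seen. The members and lists were chosen with earlier results of these data known.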

Additional observations from a re-analysis of the deposited data

Results flagged for a closer look

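The in-frame share of Ighv1-11 joins was 25.2% in VH81X-CBEscr/scr replicate 1, against 32.3% to 33.5% in the other VH81X-CBEscr/scr libraries and 29.5% to 38.6% in WT libraries. It is listed because its gap to the nearest of the other 3 libraries of its genotype was wide for their range. Gaps were looked at in 15 groups of 4 libraries, and chance marks about 1 in 20 such groups. Since the segment was chosen by its in-frame share, this is a description and no test. Among distinct joins the library had 28 of 100 joins in frame, or 28.0% (95% Wilson interval 20.1% to 37.5%), and it was not marked. The cause was not tested.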

How the results depend on the processing

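Over 214 recomputations, 183 kept direction and side of the threshold or, for shares and counts, stayed within the spread or within 1.5 times, 29 changed sign, all of them in values that were not called, and 2 moved the count of called V segments by more than 1.5 times. That count was 6, against 3 when library size was counted without VH81X, 2 with the replicate block, 4 to 9 without single libraries and 4 to 7 under the other settings. No label states that the replicate numbers pair the libraries. Deviations of same-numbered libraries correlated at -0.285, -0.0071 and 0.121, which cannot decide it, since the group means rest on few libraries. With the block the log2 fold changes were -0.07 for Ighv1-11 and -0.08 for Ighv8-2 (limma-voom adjusted p 0.947 and 0.885).

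The log2 fold change of Ighv1-11 was 0.056 among lines not marked as duplicates, 0.15 among distinct junctions and 0.056 among out-of-frame joins, and -0.14 to 0.16 without single libraries. That of Ighv8-2 was 0.0027 and 0.013 in the first 2 settings and -0.20 to -0.04 without single libraries. The adjusted p ran from 0.658 to 0.999 for Ighv1-11 and from 0.462 to 0.991 for Ighv8-2. The difference in mean log2 share of Ighv1-11 was 0.026, 0.098 and 0.0016 in those 3 settings, and -0.17 to 0.14 without single libraries, and that of Ighv8-2 was -0.21 to -0.04. In-frame shares, as means over libraries, stayed within 30.5% to 33.4% for Ighv1-11 and 33.4% to 35.5% for Ighv8-2, also with windows of 50 and 300 bp.

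The genotype difference for Ighv1-11 in added bases was -0.366 among lines not marked as duplicates, -0.107 among distinct junctions and -0.421 to 0.760 without single libraries. Without single libraries its V loss differed by -0.125 to 0.250, its JH4 loss by 0.270 to 1.03 and its lines per distinct junction by -0.923 to 0.407, and the last by 0.0102 among lines not marked as duplicates. For Ighv8-2 the ranges without single libraries were 0.774 to 1.20 for added bases, 0.0118 to 0.181 for V loss, -0.0896 to 0.301 for JH4 loss and -0.417 to 0.226 for lines per distinct junction. Between the segments they were 0.13 to 0.23 for log2 share, -0.872 to -0.430 for added bases, 1.41 to 1.59 for V loss, -0.0705 to 0.300 for JH4 loss and 0.148 to 0.377 for lines per distinct junction. Among lines not marked as duplicates the added bases differed by 0.0254 and the JH4 loss by -0.160. The structure settings, those of the permuted shares and the count of stop codons over all lines (37.2% and 33.0%) were chosen after seeing the data. The cause of these changes was not tested.

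The 4 and 3 libraries limit the comparisons of genotypes, whose exact permutation test cannot reach 0.05 with 1 library left out. Single libraries had 17 to 52 in-frame joins per segment for the stop codon shares.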
